A study of Homo sapiens with 20 samples.

Results

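Autophagy delivers cytoplasm and organelles to lysosomes, and the mRNAs of 48 genes that carry out or control this process were followed in human keratinocytes with and without the amino acid sensor GCN2. The genes were chosen by name, from the textbook steps of autophagy and from the lysosomal control genes that go with it. The rule uses no measured value, but the choice was made with earlier results of these data known. All 48 were found among the 57500 genes listed for each library, each under 1 identifier, and all 48 passed the filter for weakly expressed genes in each comparison. They fall into 8 groups by role, namely the ULK complex, the PI3K complex, membrane supply, conjugation, the ATG8 family, receptors, lysosome and fusion, and the p53-induced proteins. The last label comes from the gene names TP53INP1 and TP53INP2, and induction by p53 was not examined.

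RNA was sequenced from 20 samples of NTERT cells, which are human keratinocytes immortalised with hTERT and were grown here into differentiated sheets. WT cells are labelled wild type and carried a control sgRNA in the wound assays of the study, and GCN2KO cells were an early-passage pool edited with CRISPR/Cas9 in EIF2AK4, the gene of GCN2, so that the knockout is a mixture of edits and not a clone. Each genotype was left unwounded or underwent high-density wounding (HDW), in which a grid of scratches is drawn through the sheet so that many cells border a wound, and RNA was taken 6 h later. There were thus 4 groups, unwounded and HDW cells of each genotype, with 5 replicates in every group, and since separate cultures are not further described, p-values measure the spread between these samples.

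In autophagy the ULK kinase complex starts the process, the PI3K complex marks the forming membrane with a phosphoinositide, and the membrane is fed by lipid transfer. The conjugation enzymes then attach the small ATG8 proteins (LC3 and GABARAP types) to the membrane, where receptors bound to cargo are captured, and the closed autophagosome fuses with a lysosome. Starvation for amino acids induces the pathway through loss of mTORC1 signaling, through the transcription factors TFEB and TFE3, and through the eIF2 kinases, of which GCN2 is the one that binds uncharged tRNA.

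Promoter sequences are given for LAMP1, BNIP3 and TP53INP2, which were higher in GCN2KO cells in both conditions and whose windows hold a motif of a stress or lysosomal factor ahead of the transcript. They serve as examples of the CLEAR element (LAMP1), the E-box alone (BNIP3) and the cAMP response element (TP53INP2), and ATG101, CALCOCO2, GABARAPL1 and MAP1LC3B, which meet the same description, are given by their motif only. RefSeq (GRCh38.p14) gave start-site windows for 39 of the 48 genes, and 51 windows in all. The stretches run 5′ to 3′ on the gene's strand, and capitals mark the CACGTG letters of an E-box, the TCACGTGA letters of a CLEAR element (the TFEB-type lysosomal motif, which contains an E-box) or the TGACGTCA letters of a cAMP response element.
LAMP1, chr13:113296989-113297238, plus strand: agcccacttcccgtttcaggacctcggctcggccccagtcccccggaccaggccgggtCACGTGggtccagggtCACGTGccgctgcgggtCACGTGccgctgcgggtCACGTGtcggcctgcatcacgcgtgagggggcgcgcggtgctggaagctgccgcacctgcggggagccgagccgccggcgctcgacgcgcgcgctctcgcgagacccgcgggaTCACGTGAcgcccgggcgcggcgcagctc
BNIP3, chr10:131981968-131982173, minus strand: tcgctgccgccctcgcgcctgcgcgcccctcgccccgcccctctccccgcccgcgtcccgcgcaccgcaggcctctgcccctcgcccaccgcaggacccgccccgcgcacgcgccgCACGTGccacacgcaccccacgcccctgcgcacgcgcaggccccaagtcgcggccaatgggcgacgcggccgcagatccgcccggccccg
TP53INP2, chr20:34704094-34704338, plus strand: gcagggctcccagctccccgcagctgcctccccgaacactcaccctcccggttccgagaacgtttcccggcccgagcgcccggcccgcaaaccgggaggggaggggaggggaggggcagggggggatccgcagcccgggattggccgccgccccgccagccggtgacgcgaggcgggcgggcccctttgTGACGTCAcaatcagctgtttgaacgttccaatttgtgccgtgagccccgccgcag

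In the LAMP1 stretch the E-boxes begin at -192, -176, -159, -142 and -28 relative to the start of transcription, the last inside the CLEAR element at -29, and a further CLEAR element beginning at -2 runs past the end of the stretch. The E-box of BNIP3 begins at -134 and the cAMP response element of TP53INP2 at -61. Counting both strands, CACGTG was present in 7.26% of all 35116 promoter windows and in 4 of the 39 genes, ATG14, ATG3, BNIP3 and LAMP1. TCACGTGA was present in 0.98% of all windows and in ATG3 and LAMP1, while TGACGTCA was present in 1.85% of all windows and in GABARAPL1 and TP53INP2. TGATGNAA, the letters of a C/EBP-ATF response element, was present in 3.62% of all windows and in WDR45. TGACNNNGC, the core of an antioxidant response element, was present in 13.3% of all windows and in ATG101, CALCOCO2, LAMP1 and MAP1LC3B. A match describes letters in a window and is not a measured site.

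The libraries held 14083504 to 34611570 counts on genes, and the 48 genes took 0.398% to 0.402% of the counts in WT unwounded, 0.343% to 0.36% in WT HDW, 0.479% to 0.493% in GCN2KO unwounded and 0.438% to 0.468% in GCN2KO HDW libraries. EIF2AK4 (chromosome 15, 39934115 to 40035591) was at 152 ± 5.18 (SD, n = 5) CPM in WT cells before HDW and 146 ± 4.48 (SD, n = 5) CPM after it, CPM being the count relative to the TMM-scaled library size. It was at 31.1 ± 2.15 (SD, n = 5) in GCN2KO unwounded and 30.4 ± 2.31 (SD, n = 5) in GCN2KO HDW cells, so the GCN2KO libraries held 0.206 of the WT level unwounded and 0.208 after HDW. All 12 keratinocyte markers were present, with a summed level of 17259 to 17751 CPM in WT unwounded, 20841 to 22328 in WT HDW, 21971 to 25864 in GCN2KO unwounded and 27199 to 29189 CPM in GCN2KO HDW libraries. Over all libraries the 8 fibroblast markers summed to 23.3 to 36.3 CPM and the 6 leukocyte markers to 13.7 to 64 CPM, mostly COL1A1 and CD14, the melanocyte markers stayed within 3.68 CPM and the endothelial markers within 1.31 CPM. PTPRC, the defining leukocyte marker, had group means of 0 to 0.0117 CPM. CD14 had means of 58.5 CPM before and 31.9 CPM after HDW in WT cells and of 27.3 and 20.1 CPM in GCN2KO cells, and keratinocyte markers differed between genotypes as well. In unwounded cells 5 of the 12 were higher and 4 lower in GCN2KO, which is 41.7% and 33.3% beside 33.4% and 33.1% of all genes. The log2 fold changes were 1.83 for the differentiation gene IVL, 2.27 for the wound keratin KRT16 and -0.85 for the basal keratin KRT14. The differentiation keratin KRT1 was at -1.06, with 0.78 CPM in WT and 0.389 CPM in GCN2KO cells. KRT10 was at 0.23 and did not pass the test. The part of these shifts in the values of the 48 genes was not tested. In bulk RNA of this kind, fewer cells that express a gene and less RNA per cell cannot be told apart.

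Per kilobase of exon, the levels in WT unwounded cells spanned from 83.2 ± 4.4 (SD, n = 5) CPM per kb for LAMP1, a heavily glycosylated protein of the lysosomal membrane, to 1.14 ± 0.154 (SD, n = 5) CPM per kb for ATG10, an E2-like enzyme. The receptor OPTN was next to LAMP1 at 52.5 ± 1.16 (SD, n = 5) CPM per kb, followed by GABARAP at 37.9 ± 1.08 (SD, n = 5) and SQSTM1 at 36.1 ± 0.893 (SD, n = 5) CPM per kb. The transcription factor TFEB was near the low end at 1.49 ± 0.0337 (SD, n = 5) CPM per kb, below TFE3 at 9.61 CPM per kb. Among the ATG8 family, MAP1LC3A was at 3.72 CPM per kb in WT unwounded cells and the other members were at 19.3 to 37.9 CPM per kb.

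The comparison of GCN2KO with WT cells asks which of these mRNAs differ between the edited pool and WT cells before and after wounding. Loss of GCN2 and other differences between the pool and WT cells cannot be told apart here. In unwounded cells, 22 of the 48 genes were higher in GCN2KO than in WT cells and 12 were lower at an edgeR adjusted p of at most 0.05, and 14 did not pass the test. Those shares were 45.8% and 25% of the 48 genes, beside 33.4% higher and 33.1% lower among all 15348 genes tested. A DE gene, which also had to reach 1 in absolute log2 fold change, was found 6 times among the higher genes (8.21% of all genes) and not among the lower genes (8.22% of all genes). The 6 DE genes were MAP1LC3A, MAP1LC3B, WIPI1, ATG101, BNIP3 and TP53INP2. In 20 genes every GCN2KO library lay above every WT library (26.3% of all genes did), and in 10 every GCN2KO library lay below (27% of all genes). The median log2 fold change of the 48 genes was 0.04, and that of all genes 0.00.

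**Figure D1:**
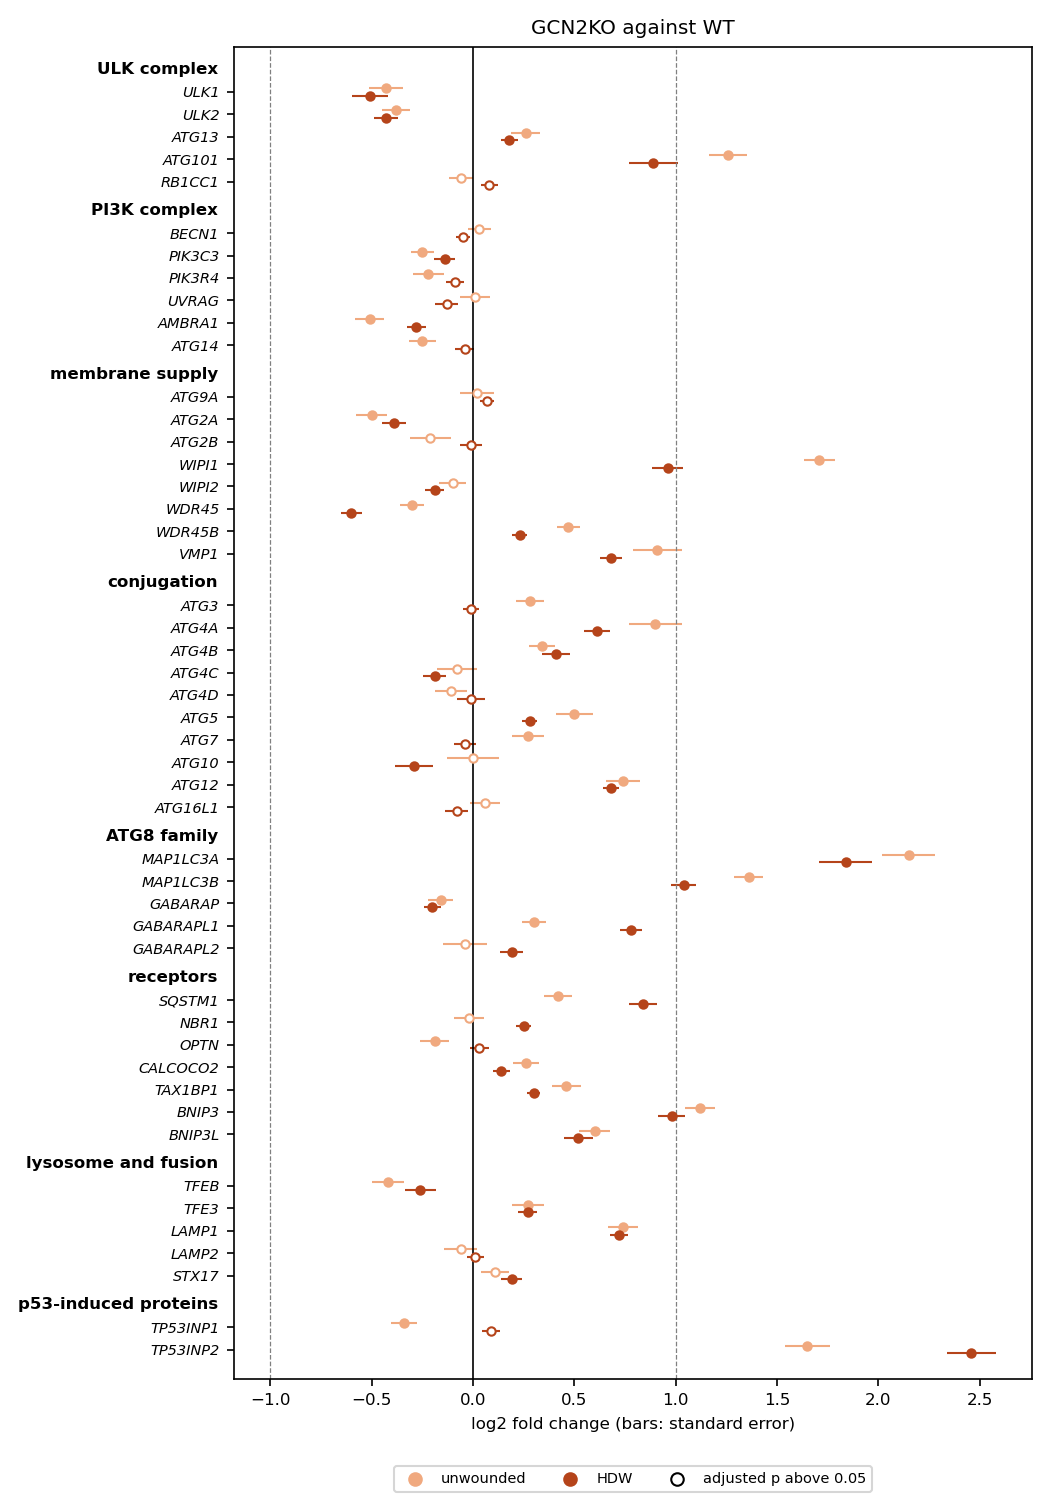
Log2 fold change of GCN2KO against WT cells on the horizontal axis for each of the 48 genes, unwounded (light) and after HDW (dark), with bars for the standard error, open circles for an adjusted p above 0.05 and dashed lines at a log2 fold change of 1 in size. The ATG8 genes MAP1LC3A and MAP1LC3B, WIPI1, ATG101, BNIP3 and TP53INP2 stand to the right at 0.89 to 2.46, while the genes of the PI3K complex lie between -0.51 and 0.03.

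After HDW, 23 of the 48 genes were higher in GCN2KO cells (35.9% of all 15855 genes tested were) and 11 were lower (35.8% of all genes). The DE genes were MAP1LC3A, MAP1LC3B and TP53INP2, all higher, beside 7.1% of all genes as higher and 7.83% as lower DE genes. The median was 0.08, with 0.00 for all genes. WIPI1 at 0.96 and BNIP3 at 0.98 were just under the fold threshold. Without GCN2KO HDW replicate 5, which had the lowest value of its group in each of the 6 genes, WIPI1 at 1.02 and BNIP3 at 1.04 passed it and the DE genes numbered 5. In both conditions 20 genes were higher, 8 were lower, and 8 did not pass the test in either, and no gene was higher in one condition and lower in the other. Among all genes, 33.4% were higher unwounded and 35.9% after HDW, and 33.1% and 35.8% were lower. The share of all genes with the same call in both conditions was not counted, so these joint counts have no background beside them.

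Among the ULK complex, which starts autophagy, the kinases and their partners went in opposite directions. ATG101, which binds and stabilizes ATG13, is on chromosome 12, 52069246 to 52077495. ATG101 was at 24.4, 23.4, 20.3, 22.1 and 23.3 CPM in the WT unwounded libraries and at 42.6, 50.8, 57.6, 63.4 and 55.2 CPM in the GCN2KO unwounded libraries. After HDW it was at 29.1, 33.8, 30.7, 27.9 and 27.7 CPM in WT and at 65.1, 67.3, 55.2, 46.9 and 41 CPM in GCN2KO cells. All GCN2KO libraries were above all WT libraries of the same condition, by 2.39-fold unwounded (log2 1.26, SE 0.094, edgeR adjusted p = 8.56e-09) and by 1.85-fold after HDW (log2 0.89, SE 0.12, edgeR adjusted p = 1.05e-05). Of the exonic bases of ATG101, 19.2% are shared with an antisense gene that had at most 1 count in any library.

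The kinase ULK2 (chromosome 17, 19770829 to 19867936) was lower in GCN2KO cells. It was at 27.6, 28.5, 26.7, 28.2 and 28.8 CPM in WT unwounded and 22.6, 23, 19.6, 21.5 and 20.2 CPM in GCN2KO unwounded libraries. The HDW libraries held 28.9, 33.5, 29.9, 32.6 and 30.9 CPM in WT and 21.1, 22.1, 24.1, 23.3 and 25.3 CPM in GCN2KO libraries. The groups did not overlap, and the log2 fold change was -0.38 unwounded (SE 0.067, edgeR adjusted p = 9.34e-05) and -0.43 after HDW (SE 0.059, edgeR adjusted p = 1.69e-05). Its relative ULK1 was lower too, with log2 fold changes of -0.43 and -0.51, whereas ATG13 was higher at 0.26 and 0.18. The scaffold RB1CC1 did not pass the test in either condition.

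No gene of the PI3K complex, which makes the lipid signal on the forming membrane, was higher in GCN2KO cells. Among all genes 33.4% were higher unwounded and 35.9% after HDW. In unwounded cells 4 of the 6 were lower, AMBRA1, PIK3C3, ATG14 and PIK3R4, and after HDW 2 were, AMBRA1 and PIK3C3, beside 33.1% and 35.8% of all genes. PIK3C3 after HDW did not pass in 5 alternative fits (edgeR adjusted p up to 0.0598). PIK3R4 unwounded did not pass in 2 (edgeR adjusted p up to 0.0622). AMBRA1 (chromosome 11, 46396414 to 46594125), a regulator of Beclin 1 and ULK1, was at 48.9, 48.4, 52.6, 51.2 and 51.5 CPM in WT unwounded and 39.1, 36.6, 32, 37.6 and 31.2 CPM in GCN2KO unwounded libraries. Wounded WT libraries were at 45, 46.7, 44.4, 48.7 and 45.4 CPM and wounded GCN2KO libraries at 35.2, 36.8, 37.3, 39.9 and 40.2 CPM. Every GCN2KO library was below every WT library, with log2 fold changes of -0.51 unwounded (SE 0.072, edgeR adjusted p = 1.06e-05) and -0.28 after HDW (SE 0.047, edgeR adjusted p = 8.46e-05). The log2 fold change of BECN1, which encodes Beclin 1, was 0.03 unwounded, with an edgeR adjusted p of 0.68, and -0.05 after HDW.

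Of the membrane supply genes, WIPI1 changed most. WIPI1 (chromosome 17, 68420948 to 68457513) encodes a protein that binds the phosphoinositide of the forming autophagosome. It was at 21.2, 23.3, 23, 27.3 and 24.1 CPM in WT unwounded libraries and at 71.4, 80.5, 85.8, 78.3 and 73.5 CPM in GCN2KO unwounded libraries. In HDW libraries it was at 27.9, 33.6, 31.3, 27.2 and 27.9 CPM in WT and at 63.5, 57.1, 59.2, 60.7 and 48.3 CPM in GCN2KO cells. The GCN2KO level was 3.27-fold that of WT unwounded (log2 1.71, SE 0.076, edgeR adjusted p = 3.47e-11) and 1.95-fold after HDW (log2 0.96, SE 0.077, edgeR adjusted p = 7.21e-08), with no overlap of groups in either condition. Of its exonic bases, 28.1% are shared with ARSG and an unnamed gene on the other strand, and ARSG was at 2.17 to 2.97 CPM in the group means.

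The relatives of WIPI1 did not follow it together. WDR45B was higher in GCN2KO cells, with a log2 fold change of 0.47 unwounded and 0.23 after HDW, and WDR45 was lower, at -0.30 and -0.60. WDR45 (chromosome X, 49074433 to 49101170) was at 35.3, 35, 36.3, 35.4 and 36.2 CPM in WT unwounded and 30.8, 26.8, 28.6, 29.6 and 28.1 CPM in GCN2KO unwounded libraries. After HDW it was at 41.3, 39.4, 38.5, 43 and 44.1 CPM in WT and 26.3, 27.8, 28.3, 25.2 and 27.9 CPM in GCN2KO libraries, without overlap (SE 0.051, edgeR adjusted p = 1.18e-07). WIPI2 did not pass the test unwounded and was at -0.19 after HDW (edgeR adjusted p = 0.00176).

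The lipid transfer protein ATG2A (chromosome 11, 64894546 to 64917209) was lower in GCN2KO cells. It was at 38, 34.7, 35.3, 33.6 and 34.9 CPM in WT unwounded and 26.1, 24.8, 21.4, 28.2 and 23.6 CPM in GCN2KO unwounded libraries. The HDW libraries gave 34.1, 34.4, 36.3, 38.2 and 39.2 CPM in WT and 27.4, 28.7, 27.5, 24.4 and 30.5 CPM in GCN2KO libraries. The log2 fold changes were -0.50 (SE 0.077, edgeR adjusted p = 2.62e-05) and -0.39 (SE 0.061, edgeR adjusted p = 4.93e-05), with no overlap of groups. VMP1, a membrane protein of the endoplasmic reticulum needed for autophagosome formation, was higher at 0.91 unwounded and 0.68 after HDW, and the lipid scramblase ATG9A did not pass the test, at 0.02 and 0.07.

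The conjugation genes, which act like a ubiquitin cascade, were higher in 6 of 10 cases in unwounded GCN2KO cells, namely ATG3, ATG4A, ATG4B, ATG5, ATG7 and ATG12, beside 33.4% of all genes, and none was lower, beside 33.1%. ATG3, ATG4A, ATG5 and ATG12 were highest in GCN2KO unwounded replicates 3 and 5. After HDW 4 were higher, ATG4A, ATG4B, ATG5 and ATG12, and 2 lower, ATG4C and ATG10, where 35.9% and 35.8% of all genes were. The ubiquitin-like protein ATG12 (chromosome 5, 115828200 to 115841837) was at 46.7, 49, 51.6, 48.5 and 52.8 CPM in WT unwounded and 81.1, 74.9, 93.7, 70.4 and 94.5 CPM in GCN2KO unwounded libraries. With HDW its level was 43, 41.3, 41.3, 39.3 and 40.9 CPM in WT and 65, 64.6, 63.3, 69.6 and 66.9 CPM in GCN2KO libraries. The groups were apart in both conditions, with log2 fold changes of 0.74 (SE 0.082, edgeR adjusted p = 8.02e-07) and 0.68 (SE 0.04, edgeR adjusted p = 4.36e-09).

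Genes of chromosome 5 were shifted upward in their median in GCN2KO cells, and ATG12, ATG10 and SQSTM1 lie on it. The median log2 fold change of the other 694 tested genes of chromosome 5 was 0.35 in unwounded cells and that of 720 genes 0.36 after HDW. Within 5 Mb of ATG12 the medians were 0.54 over 33 genes and 0.63 over 34 genes, which lie close to the 0.74 and 0.68 of ATG12 itself. Within 5 Mb of ATG10 the medians were 0.54 and 0.39, while ATG10 itself was at 0.00 and -0.29. Within 5 Mb of SQSTM1 they were 0.31 and 0.29, beside 0.42 and 0.84 for SQSTM1. The part of this shift in the difference of these genes was not tested. For the 6 DE genes, the medians of the neighbouring genes within 5 Mb were between -0.37 and 0.11.

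In the ATG8 family 3 of 5 genes were higher and 1 lower unwounded (33.4% and 33.1% of all genes were), and 4 and 1 after HDW (35.9% and 35.8% of all genes). The gene with the largest fold change in unwounded cells was among them. MAP1LC3A (chromosome 20, 34546854 to 34560345), the gene of LC3A, was at 5.32, 5.03, 3.74, 3.55 and 3.76 CPM in WT unwounded and 16.5, 15.3, 20.6, 20.1 and 19.7 CPM in GCN2KO unwounded libraries. After HDW it was at 4.34, 5.71, 5.55, 3.68 and 4.93 CPM in WT and 21.3, 18.2, 17, 16.9 and 13.5 CPM in GCN2KO libraries. It was low in every WT library, with 77 to 195 counts, and had 287 to 735 counts in GCN2KO libraries. The fold change was 4.45 unwounded (log2 2.15, SE 0.13, edgeR adjusted p = 5.37e-10) and 3.58 after HDW (log2 1.84, SE 0.13, edgeR adjusted p = 2.53e-08).

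MAP1LC3B (chromosome 16, 87383953 to 87404779) encodes LC3B, the form most used as an autophagosome marker. Its level was 109, 101, 109, 102 and 108 CPM in WT unwounded and 240, 262, 310, 263 and 280 CPM in GCN2KO unwounded libraries. In HDW libraries its level was 94.4, 106, 100, 94.8 and 97.7 CPM in WT and 228, 196, 206, 210 and 175 CPM in GCN2KO cells. The groups did not overlap, and the GCN2KO level was 2.57-fold unwounded (log2 1.36, SE 0.071, edgeR adjusted p = 1.70e-10) and 2.06-fold after HDW (log2 1.04, SE 0.063, edgeR adjusted p = 5.75e-09). Its near-identical copy MAP1LC3B2, whose reads are hard to tell from its own, was at 1.08 to 3.27 CPM in the group means.

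The GABARAP branch of the ATG8 family was divided. GABARAPL1 (chromosome 12, 10212458 to 10223128) was higher in GCN2KO cells at log2 0.30 unwounded (SE 0.059, edgeR adjusted p = 0.000329) and 0.78 after HDW (SE 0.054, edgeR adjusted p = 1.97e-08). GABARAP was lower at -0.16 and -0.20, and 48.2% of its exonic bases are shared with other annotated genes, of which the more abundant was at 0.287 to 1.01 CPM. GABARAPL2 did not pass the test unwounded and was at 0.19 after HDW.

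**Figure D2:**
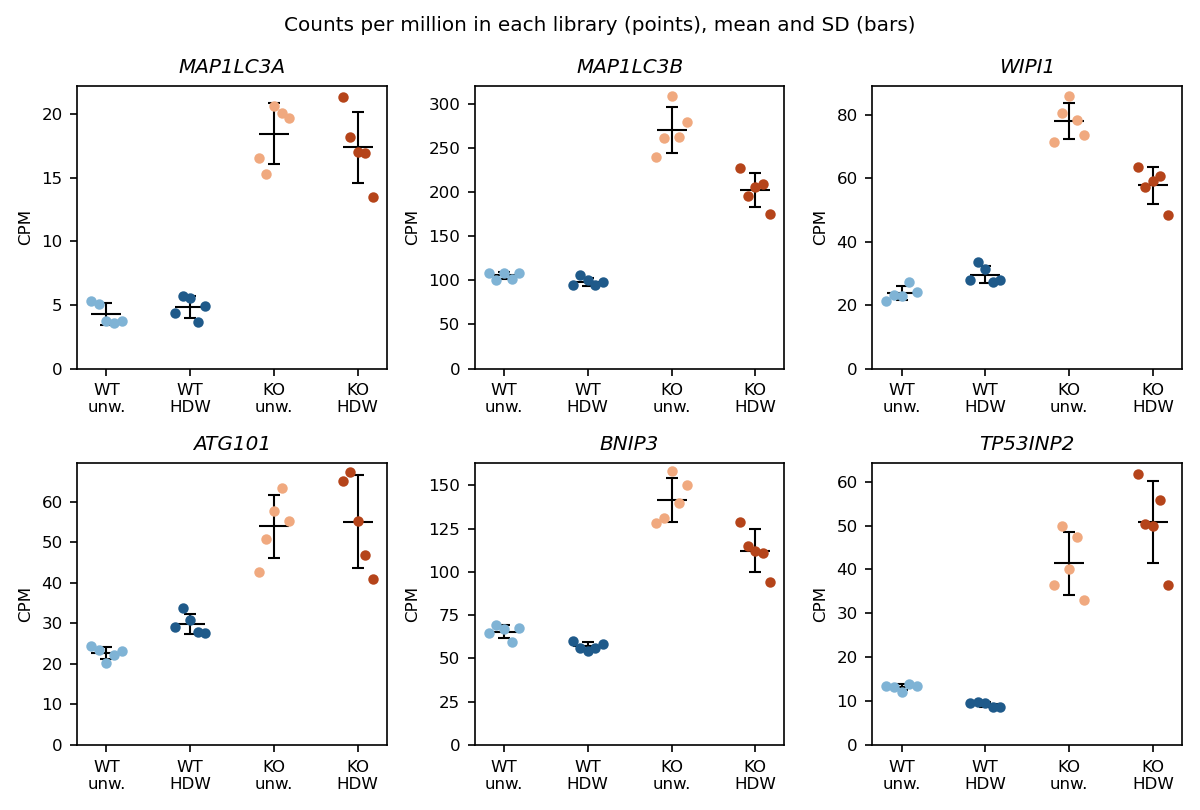
CPM of the 6 DE genes in each library (points) of the 4 groups (unw., unwounded; KO, GCN2KO), with the mean and SD as bars and each vertical axis starting at 0. In each panel all GCN2KO points lie above all WT points, and WIPI1 falls with HDW in GCN2KO cells while it is higher with HDW in WT cells.

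Among the receptors, which tether cargo to ATG8 proteins, 5 of 7 were higher in unwounded GCN2KO cells and 6 of 7 after HDW, beside 33.4% and 35.9% of all genes. BNIP3 (chromosome 10, 131967684 to 131981967), a mitophagy receptor induced by hypoxia, was at 64.5, 69.1, 67, 59.4 and 67.4 CPM in WT unwounded and 128, 131, 158, 140 and 150 CPM in GCN2KO unwounded libraries. After HDW it was at 60, 56.2, 54.2, 56 and 58.6 CPM in WT and 129, 115, 112, 111 and 94.3 CPM in GCN2KO libraries. The levels did not overlap and differed 2.17-fold unwounded (log2 1.12, SE 0.072, edgeR adjusted p = 1.50e-09) and 1.97-fold after HDW (log2 0.98, SE 0.067, edgeR adjusted p = 1.73e-08). Its homolog BNIP3L was higher at 0.60 and 0.52. SQSTM1, the gene of p62, was higher at 0.42 and 0.84, TAX1BP1 at 0.46 and 0.30, and CALCOCO2 at 0.26 and 0.14. NBR1 passed the test only after HDW, at 0.25, and OPTN only unwounded, where it was lower at -0.19.

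Among the lysosome and fusion genes, LAMP1 was higher in GCN2KO cells by a log2 fold change of 0.74 unwounded and 0.72 after HDW. Its means in WT cells were 478 ± 25.3 (SD, n = 5) CPM before and 492 ± 26.6 (SD, n = 5) CPM after HDW, and those in GCN2KO cells 797 ± 61.2 (SD, n = 5) and 813 ± 21.7 (SD, n = 5) CPM. LAMP2, its partner in the lysosomal membrane, did not pass the test, with log2 fold changes of -0.06 and 0.01. The transcription factors differed in direction, TFEB being lower at -0.42 and -0.26 and TFE3 higher at 0.27 in both conditions. STX17, the SNARE of autophagosome fusion, did not pass the test unwounded and was at 0.19 after HDW.

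TP53INP2 (chromosome 20, 34704339 to 34713439), whose protein binds LC3 and promotes autophagosome formation, was the gene with the largest fold change after HDW. It was at 13.4, 13.3, 12.1, 14 and 13.4 CPM in WT unwounded and 36.4, 49.9, 40.1, 47.3 and 33.1 CPM in GCN2KO unwounded libraries. With HDW it was at 9.62, 9.83, 9.54, 8.57 and 8.66 CPM in WT and 61.7, 50.4, 49.9, 55.9 and 36.5 CPM in GCN2KO libraries. All GCN2KO libraries were above all WT libraries, by 3.13-fold unwounded (log2 1.65, SE 0.11, edgeR adjusted p = 1.59e-09) and 5.49-fold after HDW (log2 2.46, SE 0.12, edgeR adjusted p = 8.21e-10). TP53INP1, its relative, was lower unwounded at -0.34 (SE 0.063, edgeR adjusted p = 0.00015) and at 0.09 after HDW with an edgeR adjusted p of 0.0939.

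The response to wounding was compared within each genotype, and these comparisons share their libraries with those between genotypes. In WT cells 11 of the 48 genes were higher after HDW (22.9%, beside 26.1% of all 15348 genes tested) and 21 were lower (43.8%, beside 25.2% of all genes). The median was -0.05, with 0.00 for all genes. With library size alone in place of TMM the counts were 6 higher and 23 lower. No gene reached the fold threshold of a DE gene in either direction, which 2.62% and 1.55% of all genes did, and the log2 fold changes ran from -0.66 to 0.40. DESeq2 gave 0 as well, and so did an unadjusted p, since no fold change reached the threshold. In 8 genes all HDW libraries lay above all unwounded ones (19.2% of all genes), and in 18 all lay below (17.7% of all genes).

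In GCN2KO cells HDW left 2 genes higher, ATG2B and PIK3R4 (11.9% of all 15791 genes were), and 12 lower (10.8% of all genes), with a median of -0.09 beside 0.00. The count of lower genes ran from 9 to 16 with each sample left out in turn. None was a DE gene by edgeR or DESeq2, also at an unadjusted p, beside 0.475% of all genes as higher and 0.196% as lower DE genes. The count of higher genes was 1 without GCN2KO unwounded replicate 3, and likewise without GCN2KO HDW replicate 1, 2, 3 or 4, and it was 0 without GCN2KO unwounded replicate 5.

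**Figure D3:**
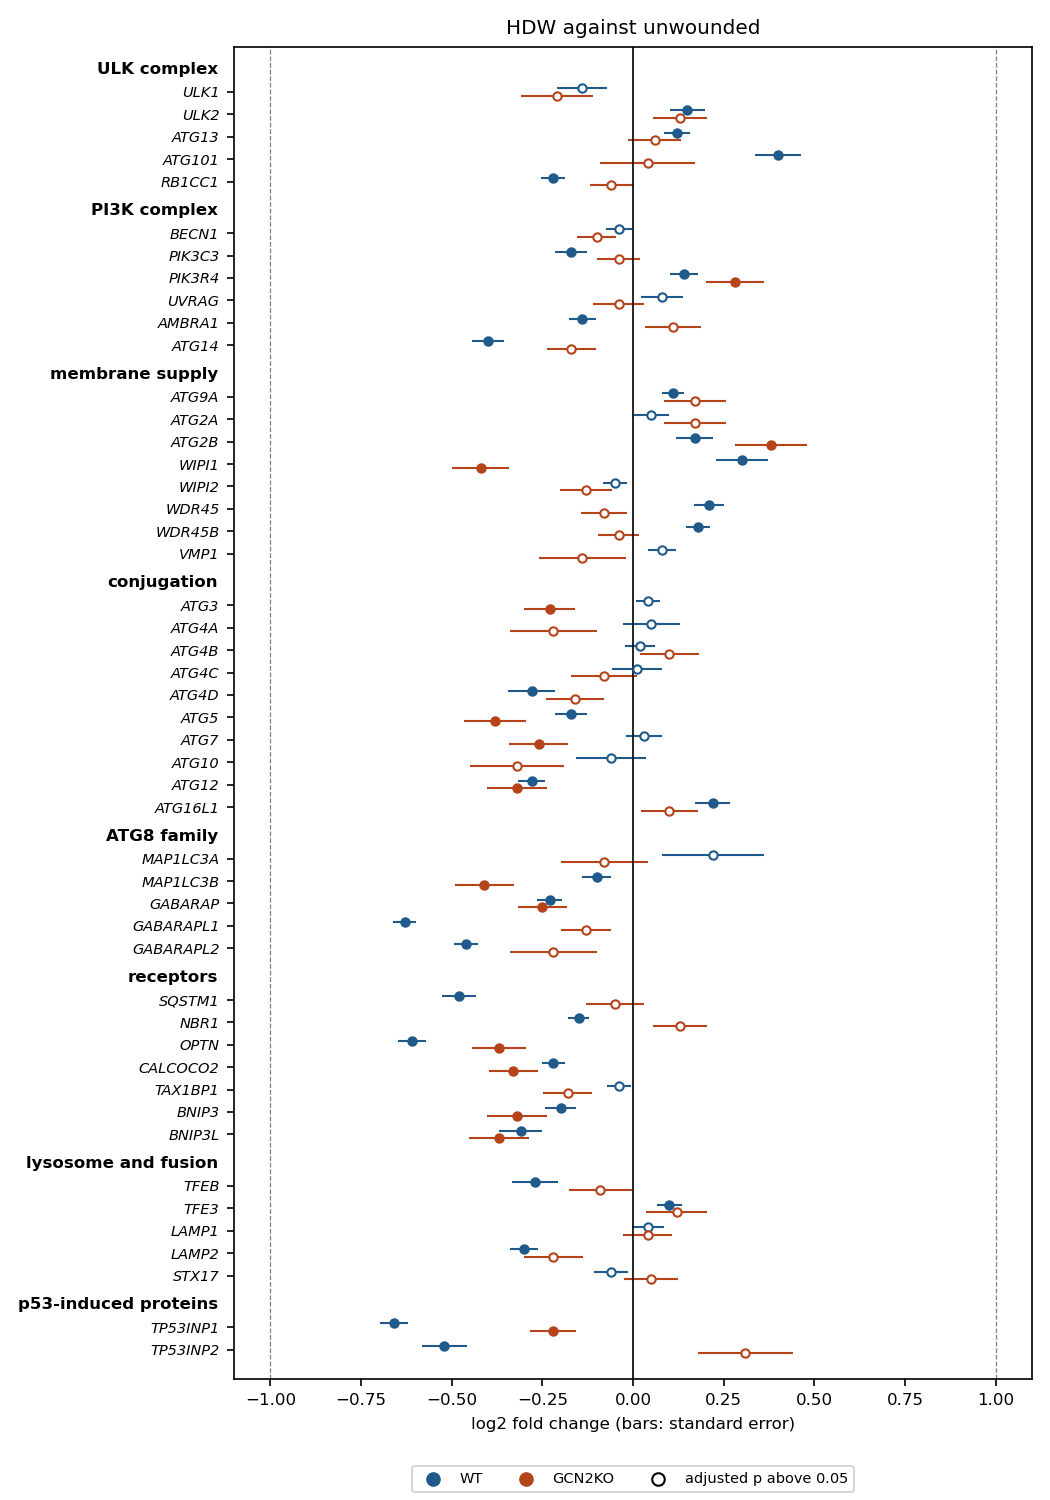
Log2 fold change of HDW against unwounded cells on the horizontal axis for each of the 48 genes in WT (blue) and GCN2KO cells (brown), with bars for the standard error and open circles for an adjusted p above 0.05. The values lie between -0.66 and 0.40, and WIPI1 is the gene with filled circles on both sides of 0.

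The genes that fell with HDW in WT cells included 6 of the 7 receptors, 4 of the 5 ATG8 genes and both TP53INP genes, beside 25.2% of all genes. The difference between these groups and the others was not tested. MAP1LC3B, 1 of the 4 ATG8 genes, was at -0.10 with overlapping groups (edgeR adjusted p = 0.0388). It did not pass in 11 alternative fits (edgeR adjusted p up to 0.246). GABARAPL1 was at 76.8, 80.4, 76.1, 77.1 and 80.3 CPM in WT unwounded and 51.5, 52, 50.8, 48.6 and 49.9 CPM in WT HDW libraries. In GCN2KO cells it was at 86.6, 96.4, 101, 99.4 and 95.5 CPM unwounded and 96.1, 86.8, 86.5, 89.6 and 76.1 CPM after HDW. The WT libraries separated fully (log2 -0.63, SE 0.032, edgeR adjusted p = 7.65e-10) and the GCN2KO libraries overlapped (log2 -0.13, SE 0.07, edgeR adjusted p = 0.19). Its relative GABARAPL2 fell by 0.46 on the log2 scale in WT cells and GABARAP by 0.23. In the PI3K complex ATG14 fell by 0.40 in WT cells, and FBXO34 on the other strand, with which it shares 20.8% of its exonic bases, was at -0.43.

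TP53INP1, a p53 target that also binds ATG8 proteins, was at 139, 137, 146, 137 and 148 CPM in WT unwounded and 91, 92.9, 86.5, 83.5 and 93.2 CPM in WT HDW libraries. The GCN2KO libraries were at 116, 103, 120, 104 and 113 CPM unwounded and 98, 88.4, 95.8, 94.4 and 97.8 CPM after HDW. It fell in both genotypes without overlap, by 0.66 on the log2 scale in WT (SE 0.039, edgeR adjusted p = 2.87e-09) and by 0.22 in GCN2KO cells (SE 0.063, edgeR adjusted p = 0.0249). The fall in GCN2KO cells did not pass in 6 alternative fits (edgeR adjusted p up to 0.0774). TP53INP2 fell by 0.52 in WT cells (SE 0.063, edgeR adjusted p = 6.28e-06) and was at 0.31 in GCN2KO cells, with overlapping groups and an edgeR adjusted p of 0.108.

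The receptor OPTN (chromosome 10, 13099449 to 13138308), which serves in the removal of mitochondria and bacteria, fell in both genotypes. It was at 270, 265, 279, 265 and 271 CPM in WT unwounded and 183, 166, 171, 179 and 190 CPM in WT HDW libraries. Among GCN2KO libraries it was at 274, 221, 232, 213 and 238 CPM unwounded and 171, 177, 179, 184 and 196 CPM after HDW. The groups were separate in both, with log2 fold changes of -0.61 (SE 0.038, edgeR adjusted p = 6.22e-09) and -0.37 (SE 0.074, edgeR adjusted p = 0.00476). SQSTM1 fell by 0.48 in WT cells and was at -0.05 in GCN2KO cells, where its groups overlapped. BNIP3 and BNIP3L fell in both genotypes, BNIP3 by 0.20 in WT and 0.32 in GCN2KO cells and BNIP3L by 0.31 and 0.37.

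The genes that rose with HDW in WT cells included 5 of the 8 membrane supply genes and 3 of the 5 genes of the ULK complex, beside 26.1% of all genes. ULK2, ATG13, ATG9A, PIK3R4 and TFE3 did not pass with library size alone, nor did ATG2B, ATG13, ATG9A, PIK3R4 and TFE3 with all 20 samples in one fit, while ATG101, WIPI1, WDR45, WDR45B and ATG16L1 passed in both. ATG101 rose by 0.40 in log2 terms (SE 0.063, edgeR adjusted p = 7.77e-05) without overlap in WT cells and was at 0.04 in GCN2KO cells. WDR45 rose by 0.21 in WT cells (SE 0.041, edgeR adjusted p = 0.000645) and WDR45B by 0.18 (SE 0.033, edgeR adjusted p = 0.000342), both without overlap. WDR45B (chromosome 17, 82614562 to 82648553) was at 67.7, 72.9, 72, 69.8 and 68.5 CPM in WT unwounded and 79.2, 82.9, 77.2, 79.7 and 78.5 CPM in WT HDW libraries. In GCN2KO cells it was at 96.5, 90.5, 99.8, 98.4 and 98.1 CPM unwounded and 98, 94.6, 93.5, 92.1 and 88.3 CPM after HDW, where the groups overlapped. ATG16L1, part of the complex that places ATG8 proteins, was the conjugation gene that rose in WT cells, at 0.22.

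ATG2B and PIK3R4 passed the test as higher after HDW in both genotypes, with values near the threshold in GCN2KO cells. There PIK3R4 did not pass in 6 of the fits that leave out a sample (adjusted p up to 0.0587) and ATG2B did not pass without GCN2KO unwounded replicate 5 (edgeR adjusted p = 0.0539). ATG2B (chromosome 14, 96279195 to 96363341), the paralog of ATG2A, was at 28.3, 30.7, 28.2, 28.7 and 28.9 CPM in WT unwounded and 33.4, 32.5, 31.3, 36.3 and 30 CPM in WT HDW libraries. In GCN2KO cells it was at 22.3, 32.2, 20.9, 27.3 and 22.6 CPM unwounded and 34.1, 33.1, 31.7, 30.4 and 32.3 CPM after HDW. The GCN2KO unwounded libraries spread widely, with replicates 2 and 4 above the others, and overlapped the HDW libraries (log2 0.38, SE 0.1, edgeR adjusted p = 0.0199).

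PIK3R4 (chromosome 3, 130678934 to 130746829) encodes the regulatory subunit of the PI3K complex. It was at 38.4, 35.1, 35.5, 37.9 and 34.9 CPM in WT unwounded and 41, 39.9, 39.3, 40.5 and 39.3 CPM in WT HDW libraries. The GCN2KO level was 32.3, 35.4, 29.1, 32.9 and 26.7 CPM unwounded and 39.7, 37.2, 38.4, 38.7 and 34.5 CPM after HDW. The WT groups were separate (log2 0.14) and the GCN2KO groups overlapped (log2 0.28, SE 0.08, edgeR adjusted p = 0.0234). WIPI1 and MAP1LC3B led the genes lower after HDW in GCN2KO cells. WIPI1 fell by 0.42 there (SE 0.078, edgeR adjusted p = 0.00308) and MAP1LC3B by 0.41 (SE 0.081, edgeR adjusted p = 0.00453), both without overlap. ATG5, ATG12, CALCOCO2, GABARAP, ATG3 and ATG7 were also lower after HDW in GCN2KO cells, at -0.38 to -0.23. Of these, ATG7 did not pass in 9 alternative fits (edgeR adjusted p up to 0.0873). ATG3 did not pass in 7 (edgeR adjusted p up to 0.078) and GABARAP in 2 (edgeR adjusted p up to 0.0582). GCN2KO unwounded replicates 3 and 5 held the highest values of ATG3, ATG5 and ATG12.

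A difference between genotypes in the response to HDW was tested with the interaction term, fitted to all 20 libraries. The change with HDW was more positive in GCN2KO than in WT cells for 6 of the 48 genes (11.2% of all 16536 genes tested) and more negative for 6 (12.5% of all genes). With library size alone the counts were 9 and 4. None reached the fold threshold, which 1.16% and 2.15% of all genes did in the positive and the negative direction, by edgeR or DESeq2 and also at an unadjusted p. The more positive genes were GABARAPL1, TP53INP1, TP53INP2, SQSTM1, NBR1 and AMBRA1, and the more negative genes WIPI1, WDR45, WDR45B, ATG3, ATG7 and MAP1LC3B.

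**Figure D4:**
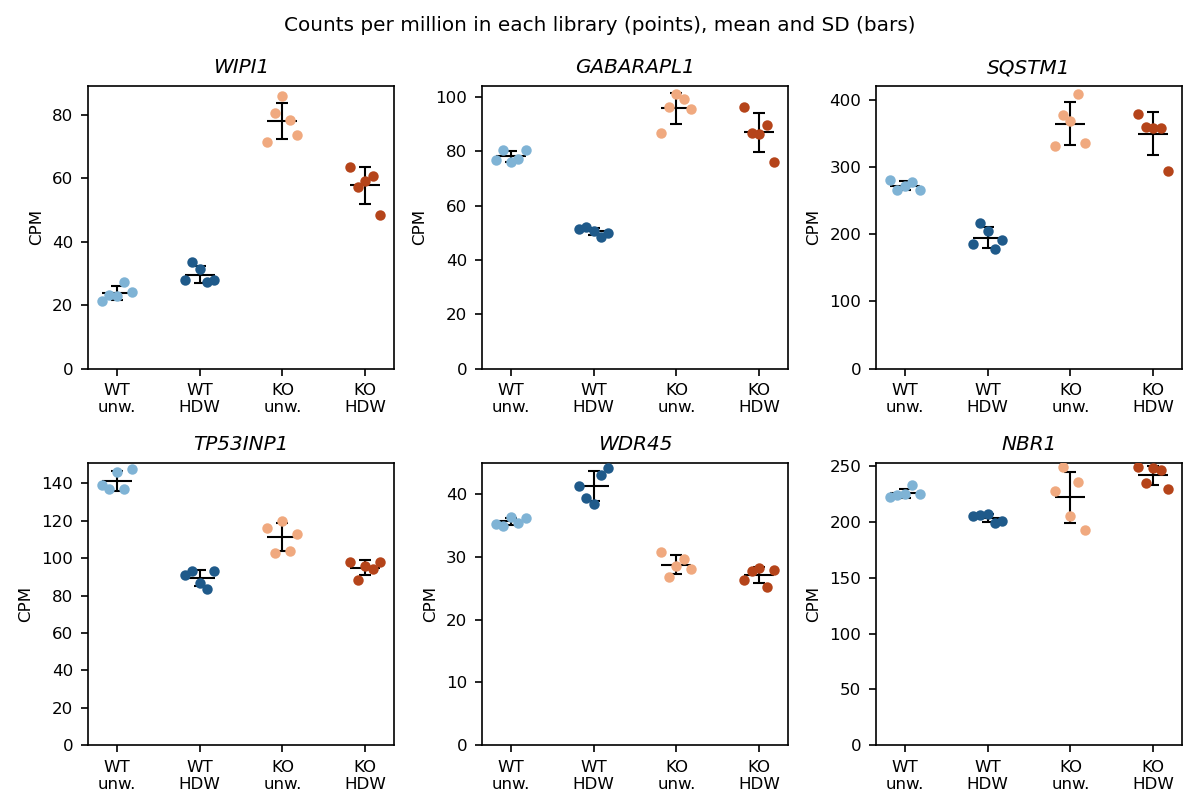
CPM of 6 genes with a passing interaction in each library (points) of the 4 groups (unw., unwounded; KO, GCN2KO), with the mean and SD as bars and each vertical axis starting at 0. GABARAPL1 and SQSTM1 drop with HDW in WT cells alone by the test within each genotype, and WIPI1 is higher in WT and lower in GCN2KO cells after HDW.

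WIPI1 was the gene with opposite called changes, at 0.30 with HDW in WT cells (SE 0.071, edgeR adjusted p = 0.00214) and -0.42 in GCN2KO cells, and its interaction was -0.74 (SE 0.11, edgeR adjusted p = 3.12e-05). GABARAPL1 had an interaction of 0.49 (SE 0.078, edgeR adjusted p = 6.97e-05), TP53INP1 of 0.43 (SE 0.074, edgeR adjusted p = 0.000152) and TP53INP2 of 0.82 (SE 0.16, edgeR adjusted p = 0.000806). WDR45 had an interaction of -0.30 (SE 0.074, edgeR adjusted p = 0.00492). For ATG3 (chromosome 3, 112532510 to 112562046), the E2-like enzyme that couples ATG8 proteins to lipid, it was -0.29 (SE 0.078, edgeR adjusted p = 0.00908). ATG3 was at 39.1, 39.7, 39.3, 38.5 and 38.9 CPM in WT unwounded and 39.6, 40.4, 41.8, 38.8 and 40.4 CPM in WT HDW libraries. It was at 46.8, 44.1, 52.6, 42.4 and 51.2 CPM in GCN2KO unwounded and 38, 38.9, 40.4, 41.2 and 42 CPM in GCN2KO HDW libraries, so that the genotypes were apart before HDW and overlapped after it. SQSTM1 had an interaction of 0.42 (edgeR adjusted p = 0.00262), and 22.4% of its exonic bases are shared with MRNIP and MGAT4B on the other strand, with MRNIP at 6.48 to 13.9 CPM and MGAT4B at 195 to 218 CPM in the group means beside 195 to 364 CPM for SQSTM1. MGAT4B had an interaction of 0.05 and MRNIP of 0.58.

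The machinery around these genes was followed in 7 further lists. Of 17 genes of the V-ATPase, the proton pump that acidifies lysosomes, 13 were higher in unwounded GCN2KO cells (33.4% of all genes were) and 14 after HDW (35.9% of all genes), and none was lower in either, with medians of 0.47 and 0.32. ATP6V0E1 was at 108 ± 5.34 (SD, n = 5) CPM in WT and 210 ± 27.9 (SD, n = 5) CPM in GCN2KO unwounded cells, with a log2 fold change of 0.97, an SE of 0.082 and an edgeR adjusted p of 3.73e-08. ATP6V0C was at 0.90 (SE 0.1, edgeR adjusted p = 7.92e-07), and 76.3% of its exonic bases are shared with other genes on the same strand. In WT cells 3 V-ATPase genes rose and 7 fell with HDW, with a median of -0.09. These shares were 17.6% and 41.2%, beside 26.1% and 25.2% of all genes.

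Of 41 lysosomal hydrolases, which digest the delivered material, 23 were lower and 11 higher in unwounded GCN2KO cells and 23 and 13 after HDW, with medians of -0.39 and -0.41 beside 0.00 for all genes in both. The lower share was 56.1% in both conditions, beside 33.1% and 35.8% of all genes, and the higher shares were 26.8% and 31.7%, beside 33.4% and 35.9%. IDUA, an enzyme of glycosaminoglycan breakdown, was at 6.17 ± 0.895 (SD, n = 5) CPM in WT and 1.4 ± 0.337 (SD, n = 5) CPM in GCN2KO unwounded cells, a log2 difference of -2.09 (SE 0.16, edgeR adjusted p = 7.51e-09). CTSH, a cathepsin, was at 200 ± 10.8 (SD, n = 5) and 51.7 ± 11.3 (SD, n = 5) CPM (log2 -1.94, SE 0.12, edgeR adjusted p = 8.13e-10). The sialidase NEU1 and the acid lipase LIPA were higher, at 1.30 and 0.66. With HDW 18 hydrolases fell and 9 rose in WT cells, which is 43.9% and 22% beside 25.2% and 26.1% of all genes. In GCN2KO cells 6 fell and 1 rose, which is 14.6% and 2.44% beside 10.8% and 11.9% of all genes.

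Of 25 lysosomal membrane proteins and cofactors, 12 were higher and 7 lower in unwounded GCN2KO cells, which is 48% and 28% beside 33.4% and 33.1% of all genes, with LAMP3 at 1.70 and CD68 at 1.00 as the highest and GM2A at -1.04 and HGSNAT at -0.97 as the lowest. GM2A also lies on chromosome 5. CD68 was at 1.69 CPM in WT and 3.3 CPM in GCN2KO unwounded cells, and 81.6% of its exonic bases are shared on the same strand. Of 32 genes of mTORC1 and amino acid sensing, 12 were higher and 9 lower, and these shares of 37.5% and 28.1% lie near those of all genes. MITF, which is related to TFEB, was at 1.98 (SE 0.17, edgeR adjusted p = 3.94e-08) and SESN2, a leucine sensor, at 1.09 (SE 0.08, edgeR adjusted p = 6.87e-09), while CASTOR1, an arginine sensor, was at -1.31 and CASTOR2 at -0.74. CASTOR1 was low, at 1.65 CPM in WT and 0.671 CPM in GCN2KO unwounded cells, and CASTOR2 was at 2.66 and 1.61 CPM. Of the exonic bases of CASTOR1, 46% are shared with another gene on the same strand. SESN2 rose with HDW in WT cells by a log2 fold change of 0.74, and its interaction was -0.65 (SE 0.12, edgeR adjusted p = 0.000222).

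Of 15 genes of fusion and late steps, 6 were higher and 3 lower in unwounded GCN2KO cells, and 10 and 3 after HDW. The share higher was 40% unwounded, near the 33.4% of all genes, and 66.7% after HDW, beside 35.9%. The share lower was 20% in both conditions, beside 33.1% and 35.8% of all genes. The SNARE YKT6 was at 0.98 and 0.87, TMEM41B, which works with VMP1, was at 0.93 unwounded, and the SNARE VAMP8 was at -0.40 and -0.55. TMEM41B is counted in this list, although VMP1 is placed under membrane supply. Of 17 other selective autophagy receptors tested, 6 were higher and 3 lower in unwounded cells, which is 35.3% and 17.6% beside 33.4% and 33.1% of all genes, with the endoplasmic reticulum receptors CCPG1 at 1.37 and RTN3 at 1.05 and the mitochondrial protein PHB2 at -1.11 and KEAP1 at -0.41. Of 8 AMPK genes, 5 were higher and 1 lower in unwounded cells, beside 33.4% and 33.1% of all genes. PRKAA2, a catalytic subunit of AMPK, had 0 counts in every WT unwounded library and 28 to 56 counts in the GCN2KO unwounded libraries, at least 53.4-fold higher against a floor of 3 counts over the WT group. PRKAG2 was at 0.68 and CAMKK2, a kinase upstream of AMPK, at -0.66.

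**Figure D5:**
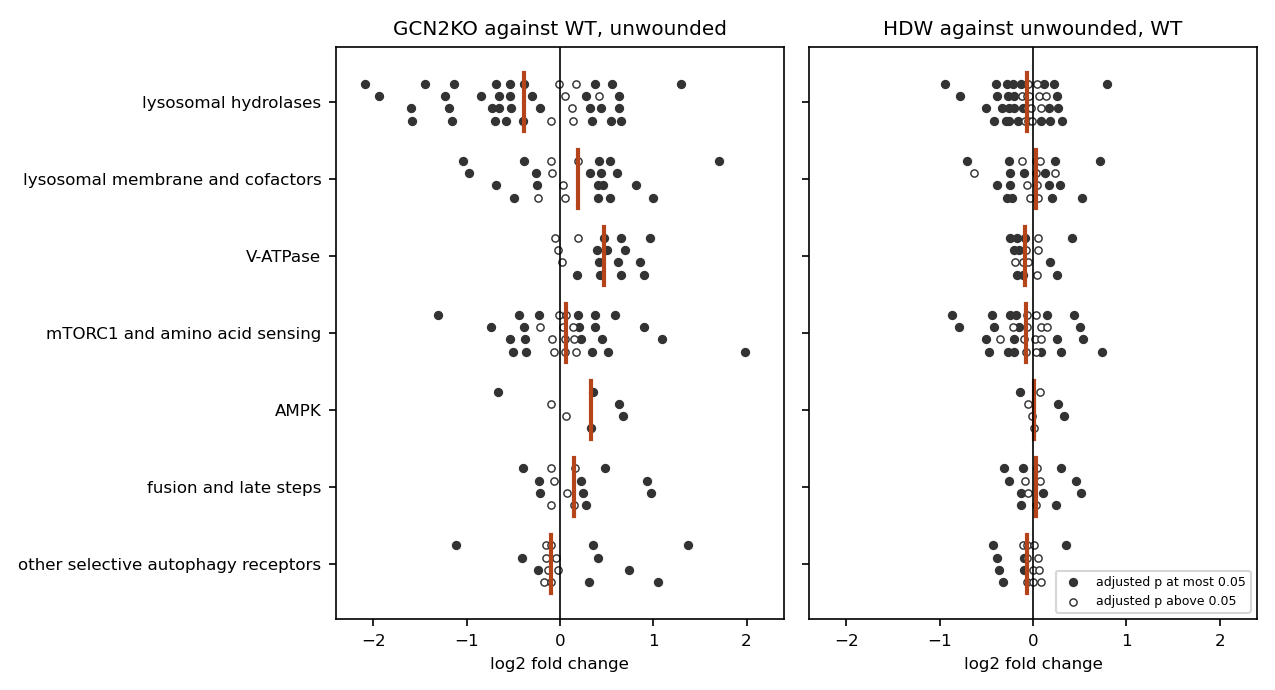
Log2 fold change of each gene of 7 lysosomal and autophagy lists, for GCN2KO against WT unwounded cells (left) and HDW against unwounded WT cells (right). Filled circles have an adjusted p of at most 0.05, vertical bars are list medians of the genes drawn, and PRKAA2 is not drawn since its WT libraries were at 0. The V-ATPase genes lie between -0.05 and 0.97 and the hydrolases reach from -2.09 to 1.30 on the left panel.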

How the data were processed

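The authors trimmed reads with Trimmomatic 0.36, aligned them to GRCh38 with STAR 2.5.2b and counted unique reads on exons with featureCounts of Subread 1.5.2. The deposited files hold unnormalized counts of reads for each gene, with no gene left out for low counts. Of 57500 genes, 56410 matched GENCODE release 44, which gave symbols, positions and exonic lengths. Strandedness and the annotation release are not given in the sources used here.

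Comparisons were run in R 4.3.3 with edgeR 4.0.16 (quasi-likelihood test, TMM, filterByExpr with a minimum count of 10 and a minimum total of 15, Benjamini-Hochberg adjustment over all genes). Pairwise fits used the 10 libraries of their groups and the interaction all 20. A gene passed the test at an adjusted p of at most 0.05 and was a DE gene if its absolute log2 fold change was also at least 1, the thresholds of the study. The SE was obtained from the log2 fold change and the F statistic of its test, as their ratio after taking the root of F. CPM values used TMM factors over all 20 libraries. Library totals of 14083504 to 34611570 counts limit the precision. The scripts were tested on simulated data.

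The 48 genes and the lists were chosen with earlier results of these data known. Values in every library are given for DE genes and, in each test, for the 3 genes of smallest adjusted p per direction. Other genes are examples, for each list up to 2 highest and 2 lowest. SQSTM1, LAMP1, VMP1, BECN1, LAMP2 and further members are named to account for their groups, and MAP1LC3B2, ARSG, MRNIP, MGAT4B and ATG9B as copies or neighbours of members, chosen after values were seen. Alternatives were DESeq2 1.42.0, its size factors, library size alone, a higher minimum (mean count of 50) or none, one fit of all 20 samples, the replicate block, thinning to the smallest library and leaving out each sample.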

Additional observations from a re-analysis of the deposited data

Results flagged for a closer look

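Among 72 groups of 5 libraries, from 18 genes whose library values are given, 1 sample stood apart by Dixon's criterion, of which chance would give about 1 in 20 groups. It was WT unwounded replicate 2 for ATG2B, at 30.7 CPM beside 28.2 to 28.9 CPM in the other libraries of its group. The criterion looks for 1 outlying sample and can miss a pair. In GCN2KO unwounded cells, replicates 3 and 5 stood together apart from the others in some genes. VMP1 was at 207 and 196 CPM in them and at 129 to 146 CPM in the others. GABARAPL2 was at 86.2 and 83.4 beside 58.3 to 59.5 CPM, and ATG9A at 81.7 and 77.9 beside 99.7 to 104 CPM. Among conjugation genes ATG3 was at 52.6 and 51.2 beside 42.4 to 46.8 CPM, and ATG4A at 28 and 24.9 beside 18.1 to 19.9 CPM. ATG5 was at 65.1 and 61.9 beside 47.5 to 50.9 CPM, and ATG12 at 93.7 and 94.5 beside 70.4 to 81.1 CPM. The fits that leave out 1 sample keep at least 1 of this pair. The part of this split in the GCN2KO comparisons was not tested.

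The response to HDW differed between genotypes by edgeR's interaction test for 12 genes, 6 in each direction. That is 12.5% of the 48 genes as more positive and 12.5% as more negative in GCN2KO cells. These shares lie near the 11.2% and 12.5% of all genes. The log2 difference, GCN2KO response minus WT response, was 0.82 for TP53INP2, 0.49 for GABARAPL1, 0.43 for TP53INP1, 0.42 for SQSTM1, 0.27 for NBR1 and 0.24 for AMBRA1. It was -0.74 for WIPI1, -0.32 for MAP1LC3B, -0.30 for WDR45, -0.30 for ATG7, -0.29 for ATG3 and -0.23 for WDR45B. AMBRA1 had the least stable of these, with an adjusted p above 0.05 in 18 of the alternative fits and up to 0.138, while WIPI1, GABARAPL1, SQSTM1, TP53INP1, TP53INP2, NBR1, WDR45, ATG3 and MAP1LC3B stayed past the threshold in every alternative fit.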

How the results depend on the processing

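Of 126 gene results past the test, 99 stayed past it in every alternative and none reversed. In some fit leaving out 1 sample 14 were lost, and in some other alternative 23. The genes higher after HDW in WT cells numbered 6 with all 20 samples in one fit and 6 with library size alone. With each sample left out in turn, the DE genes higher in GCN2KO cells after HDW numbered 2 to 5, and the genes higher after HDW in GCN2KO cells 0 to 3. Same-numbered samples did not deviate together (correlations of -0.325 to 0.133), so the numbers do not pair them. With the replicate block the genes lower after HDW in GCN2KO cells numbered 7, and 7 gene results were lost in all. The cause of these changes was not tested. The highest adjusted p among calls lost in some alternative was 0.695, for TFE3 after HDW in WT cells, and that for MAP1LC3B in the same comparison was 0.246.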

Other observations

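ATG9B, the paralog of the lipid scramblase ATG9A, was examined after its values were seen. It was at 0.318 ± 0.105 (SD, n = 5) CPM in WT unwounded and 0.439 ± 0.0911 (SD, n = 5) CPM in WT HDW cells, with 3 to 18 counts per library. In GCN2KO cells it was at 5.55 ± 1.54 (SD, n = 5) CPM unwounded and 10 ± 1.58 (SD, n = 5) CPM after HDW, with 80 to 396 counts. Relative to WT, the GCN2KO log2 fold change was 4.12 unwounded (SE 0.26, edgeR adjusted p = 1.23e-09) and 4.51 after HDW (SE 0.17, edgeR adjusted p = 1.09e-10), and every GCN2KO library was above every WT library. ATG9A did not pass the test in either condition.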
